A study of Mus musculus with 6 samples.

Results

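The BCL2 family of apoptosis regulators was followed in mouse liver after a toxic injury, by 10 of its genes in a whole-liver RNA-seq table of 24346 genes. The members were named by their known role, with earlier results of these data known: the anti-apoptotic *Bcl2*, *Bcl2l1* and *Mcl1*, the effectors *Bax* and *Bak1*, and the BH3-only genes *Bid*, *Bbc3*, *Bcl2l11*, *Pmaip1* and *Bmf*. The study deleted *med23*, which encodes a subunit of the Mediator complex, in the liver and injured it with carbon tetrachloride (CCl4), a toxin that kills hepatocytes around the central vein. The 6 libraries came from male C57/BL6 mice of 8 weeks, 3 labelled wt and 3 labelled med23 ko, all killed 24 h after CCl4 at 0.6 μl per g of body weight. The design text of the series names the same groups med23 f/f and med23 Δli, so that wt here means a floxed control and not a mouse free of engineered alleles. In med23 Δli mice the Cre recombinase is driven by the *Albumin* promoter, which acts in hepatocytes, and the other cells of the liver keep *med23*. Each library was 1 liver, every mouse had received CCl4, and no untreated liver was in the comparison.

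*Med23* itself did not tell the groups apart. It was at 3.51 ± 0.589 FPKM (fragments per kilobase of transcript, scaled to the size of the library; SD, n = 3) in wt and 3.24 ± 0.286 FPKM (n = 3) in the livers labelled med23 ko, and the groups overlapped (exact two-sided permutation test, p = 0.4, where 3 against 3 livers allow no p under 0.1). FPKM counts every exon of the gene, also any outside a floxed segment, and every cell of the liver, and the part of these in the *Med23* level was not tested. Every direction below rests on the labels. Summed FPKM was 591848 to 651193 per library. Of all genes tested by limma, 37.6% had an unadjusted p under 0.05, a share to set beside the marker counts that follow. None of 7 hepatocyte markers passed limma after adjustment (2 at an unadjusted p under 0.05). Their summed level was 39487 to 51780 FPKM in wt and 35321 to 42933 FPKM in med23 ko. None of 6 macrophage markers passed (1 at an unadjusted p under 0.05, with sums of 220 to 261 FPKM in wt and 256 to 260 in med23 ko). Nor did any of 5 neutrophil markers (3 at an unadjusted p under 0.05, with sums of 43.3 to 137 and 40.3 to 100 FPKM). All 5 neutrophil log2 fold changes were below 0, with a median of −0.60. *Csf3r* and *Cxcr2* were lower in every med23 ko liver than in any wt liver, as were 20.4% of genes tested. All 7 lymphocyte markers were under 1 FPKM in every liver. Of 6 stellate cell markers 1 fell (16.7%, against 9.48% of all genes tested; 3 at an unadjusted p under 0.05), with a sum of 80.8 to 101 FPKM in wt and 63.4 to 82.9 FPKM in med23 ko. None of 5 cholangiocyte markers passed, adjusted or not, and their sums overlapped between the groups. Of 4 erythroid markers, *Hba-a1* alone passed, at 0.00113 FPKM in the wt mean and 18.0, 4.77 and 0.139 FPKM in med23 ko, but it entered the test only through the med23 ko livers and has a near-identical copy in *Hba-a2*. The erythroid sum varied between livers, at 27.5 to 204 FPKM in wt and 40.5 to 69.4 FPKM in med23 ko. All 6 endothelial markers fell, from 81.4 to 119 FPKM in sum to 43.7 to 46.9 FPKM. In med23 ko replicate 2 the adipocyte markers summed to 11.6 FPKM, against 0.0600 to 0.428 FPKM in the other livers, with *Ucp1* and *Plin1* at 0 in those. Values of the members without this library are given beside each call. In whole tissue, fewer cells of a type and less RNA per cell cannot be told apart.

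The BCL2 family sets whether the outer membrane of the mitochondrion stays intact. The effectors BAX and BAK form pores in it when activated, and cytochrome c then leaves and starts the caspase cascade; the anti-apoptotic members bind and restrain them. The BH3-only proteins carry only the short BH3 helix, which fits into a groove of the anti-apoptotic members and frees or activates the effectors. In the hepatocyte, BCL-XL (*Bcl2l1*) and MCL-1 are both known to be needed for survival, and BID is known to link death receptors to mitochondria.

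The BH3 helix is the feature on which members bind one another, and its coding stretch is shown for 9 members to let the shared core be read across roles. Each stretch has 15 codons (GENCODE M21, GRCm38/mm10, coding strand, coding exons as numbered in the transcript used). The 6 codons in capitals code for a leucine, any 2 residues, a residue such as isoleucine, valine, methionine or alanine, a glycine or alanine, and an aspartate.
Bcl2 (anti-apoptotic; chr1:106712569-106712613, minus strand, exon 1 of 2): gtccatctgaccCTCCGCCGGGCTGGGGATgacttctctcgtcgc
Bcl2l1 (anti-apoptotic; chr2:152829691-152829735, minus strand, exon 2 of 3): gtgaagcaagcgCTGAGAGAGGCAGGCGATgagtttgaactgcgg
Mcl1 (anti-apoptotic; chr3:95659424-95659468, plus strand, exon 1 of 3): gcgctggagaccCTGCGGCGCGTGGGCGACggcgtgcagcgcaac
Bax (effector; chr7:45465991-45466035, minus strand, exon 3 of 6): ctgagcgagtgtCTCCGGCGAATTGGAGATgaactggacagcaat
Bak1 (effector; chr17:27022525-27022569, minus strand, exon 4 of 6): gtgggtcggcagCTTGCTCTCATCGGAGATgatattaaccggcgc
Bid (BH3-only; chr6:120897283-120897327, minus strand, exon 4 of 6): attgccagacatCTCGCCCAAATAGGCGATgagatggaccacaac
Bbc3 (BH3-only; chr7:16313761-16313805, plus strand, exon 3 of 4): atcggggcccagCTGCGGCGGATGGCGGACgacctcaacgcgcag
Bcl2l11 (BH3-only; chr2:128147138-128147182, plus strand, exon 3 of 4): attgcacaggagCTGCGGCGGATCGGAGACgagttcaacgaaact
Bmf (BH3-only; chr2:118545094-118545138, minus strand, exon 4 of 5): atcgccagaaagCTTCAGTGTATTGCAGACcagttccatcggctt
The fifth capital codon coded for glycine in 7 of these members and for alanine in 2, *Bbc3* and *Bmf*. Not every annotated coding transcript held the stretch. It was in 1 of 3 for *Bbc3*, 1 of 2 for *Bid*, 4 of 5 for *Bax* and *Bcl2l11* and 7 of 8 for *Bcl2l1*, and FPKM per gene does not separate these transcripts.

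Of the 10 members, 2 rose in med23 ko, *Bbc3* and *Mcl1*, and none fell. The comparison asked whether livers labelled med23 ko differed from wt in these genes 24 h after the toxin. It used 8 members, since *Bcl2* and *Bmf* lay under a mean of 0.5 FPKM and were not tested. A gene was called changed at an adjusted p under 0.05 in limma on log2(FPKM + 0.1), a scale that understates the change of low genes; 11.6% of the 11956 genes tested were called higher and 9.48% lower. No member was called lower. At an unadjusted p under 0.05 by the same limma fit, *Bcl2l1* was the only member lower, where 17.1% of all genes tested were lower. *Bbc3* was also past 2-fold, as were 4.45% of genes upwards and 3.45% downwards. Among the 8 tested members the groups did not overlap for 4, all higher in med23 ko, against 23.3% of genes tested that were higher and 20.4% that were lower in this sense. The median log2 fold change of the 8 was 0.26, and that of all genes tested was 0.02.

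**Figure D1:**
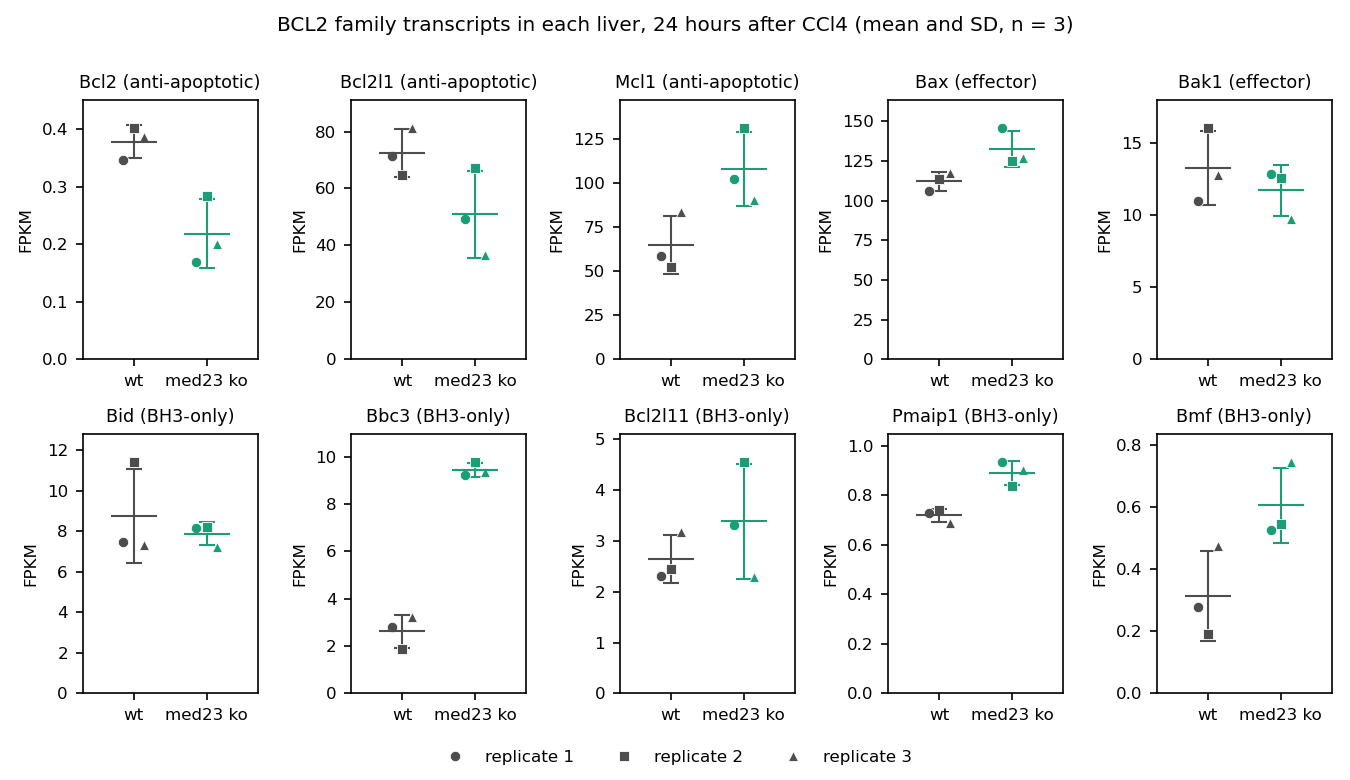
FPKM of the 10 members (vertical axes, each from 0) in the 3 wt and 3 med23 ko livers; points are livers, horizontal lines group means and error bars the SD (n = 3). The med23 ko livers lay above all wt livers for Bbc3, Mcl1, Bax, Pmaip1 and Bmf and below them for Bcl2, and the groups overlapped for the other 4 genes.

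Among the anti-apoptotic members, the 2 abundant genes stood in different relation to each other in the groups. *Mcl1* encodes a short-lived protein that holds BAK and the BH3-only proteins in check. It lay on chromosome 3 (95658788 to 95663176, plus strand) and was at 58.7, 52.5 and 83.3 FPKM in wt replicates 1 to 3 and at 102, 131 and 90.4 FPKM in med23 ko. The lowest med23 ko liver was close above the highest wt liver. *Mcl1* rose 1.67-fold in mean FPKM, from 64.8 ± 16.3 to 108 ± 21.1 (SD, n = 3 each), with a log2 fold change of 0.75 (SE 0.21, 95% interval 0.25 to 1.24; limma adjusted p = 0.0433). The call was close to its threshold. Adjusted p was not under 0.05 in 9 of 14 alternative analyses (range 0.0131 to 0.144), while the log2 fold change kept its sign (0.60 to 0.94). Leaving out any 1 liver other than wt replicate 3 lost the call. Limma adjusted p was 0.110 without wt replicate 1, 0.104 without wt replicate 2, and 0.111, 0.144 and 0.0728 without med23 ko replicates 1, 2 and 3.

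*Bcl2l1* encodes BCL-XL, the other main survival protein of the hepatocyte. It lay on chromosome 2 (152780668 to 152831728, minus strand) and was at 71.4, 64.6 and 81.3 FPKM in wt and 49.2, 67.1 and 36.6 FPKM in med23 ko. The groups overlapped, with med23 ko replicate 2 between the wt livers. Means were 72.4 ± 8.40 and 51.0 ± 15.3 FPKM (SD, n = 3 each). The log2 fold change was −0.54 (SE 0.22, unadjusted 95% interval −1.05 to −0.03), and it did not pass after adjustment (limma adjusted p = 0.114). It ranged from −0.33 without med23 ko replicate 3 to −0.76 without med23 ko replicate 2, the library with adipocyte markers, and did not pass with any 1 liver left out (limma adjusted p 0.0630 to 0.290).

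*Bcl2*, which founded the family, was low in these livers. It was at 0.346, 0.402 and 0.385 FPKM in wt and 0.168, 0.284 and 0.201 FPKM in med23 ko, so that every med23 ko liver was below every wt liver. Of 5796 genes under the same filter with a value above 0, 7.26% were lower in this sense and 6.95% higher. Group means were 0.378 ± 0.0286 and 0.218 ± 0.0598 FPKM (SD, n = 3 each), and the exact two-sided permutation test gave p = 0.1, the smallest that 3 against 3 allow. With no filter *Bcl2* was tested and did not pass (limma adjusted p = 0.118). The endothelial markers were lower in the same livers, and their part in the *Bcl2* values was not tested.

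Within each liver, *Mcl1* and *Bcl2l1* could be set against each other, since FPKM is per transcript length. The ratio of *Mcl1* to *Bcl2l1* FPKM was 0.823, 0.812 and 1.02 in wt and 2.07, 1.96 and 2.47 in med23 ko. In wt the genes were near parity, and *Bcl2l1* was the higher in 2 of 3 livers. In every med23 ko liver *Mcl1* was the higher, including replicate 2, in which *Bcl2l1* was at its med23 ko maximum. *Mcl1* made up 44.7% to 50.5% of the summed anti-apoptotic FPKM in wt and 66.1% to 71.1% in med23 ko. The log2 ratio differed by 1.29 between the group means, and by 1.19 to 1.40 with 1 liver left out. The ratio was formed from members chosen with results known, so it is given without a test.

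**Figure D2:**
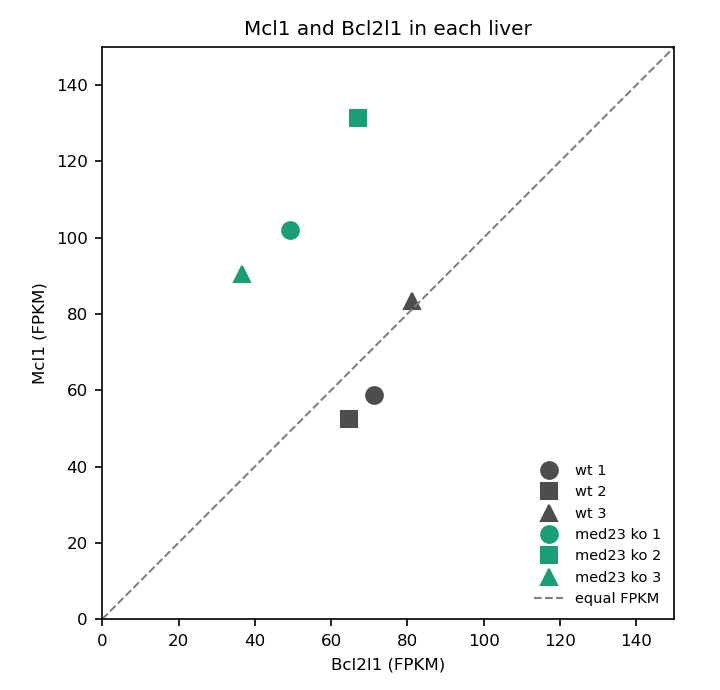
FPKM of Mcl1 (vertical axis) against Bcl2l1 (horizontal axis) in the 6 livers; each point is a liver. The 3 med23 ko livers lay where Mcl1 was 1.96 to 2.47 times Bcl2l1, and the 3 wt livers near equal levels, at 0.812 to 1.02.

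Neither effector passed the test. *Bax* encodes the cytosolic effector that moves to mitochondria when activated, and it was the most abundant member by mean FPKM in both groups. It was at 106, 113 and 117 FPKM in wt and 146, 125 and 127 FPKM in med23 ko, with every med23 ko liver above every wt liver. Means were 112 ± 5.80 and 133 ± 11.6 FPKM (SD, n = 3 each), and the log2 fold change of 0.24 (SE 0.13, 95% interval −0.05 to 0.53) did not pass (limma adjusted p = 0.207). Under quantile normalization the log2 fold change of *Bax* was 0.11 (limma adjusted p = 0.581). An exon of *Bax* is shared on the same strand with the gene model *Gm45808*, so part of its value is uncertain. Exons of *Bak1*, *Bid* and *Bcl2* overlap those of *Ggnbp1*, *Bcl2l13* and *D630008O14Rik* on the opposite strand, which leaves their values uncertain too, since the strand setting of the counting is not known. *Bak1* encodes the effector that resides in the mitochondrial membrane. It was at 11.0, 16.1 and 12.8 FPKM in wt and 12.8, 12.6 and 9.71 FPKM in med23 ko, with overlapping groups and a log2 fold change of −0.17 (SE 0.18, 95% interval −0.60 to 0.25; limma adjusted p = 0.526). With 1 liver left out that value ran from −0.30 (wt replicate 1) to −0.026 (wt replicate 2). *Bax* made up 87.6% to 92.9% of the summed effector FPKM in the 6 livers.

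Of the BH3-only members, *Bbc3* showed the larger of the 2 calls in the family. It encodes PUMA, which binds all the main anti-apoptotic members and is known as a target of p53 and of FOXO factors. It lay on chromosome 7 (16308393 to 16318205, plus strand), with no overlapping gene in the annotation. *Bbc3* was at 2.80, 1.87 and 3.22 FPKM in wt and at 9.21, 9.77 and 9.35 FPKM in med23 ko. The med23 ko livers lay close together, and the lowest of them was well above the highest wt liver. *Bbc3* rose 3.59-fold, from 2.63 ± 0.691 to 9.44 ± 0.290 FPKM (SD, n = 3 each), with a log2 fold change of 1.84 (SE 0.20, 95% interval 1.37 to 2.31; limma adjusted p = 0.00237). The call held in 14 of 14 alternative analyses (log2 fold change at least 1.54, adjusted p 0.00165 to 0.0204), each single liver left out included. Without med23 ko replicate 2, the library with adipocyte markers, its log2 fold change was 1.81 (limma adjusted p = 0.0145).

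The other BH3-only members did not pass or were not tested. *Bid*, whose product is cut by caspase-8 downstream of death receptors, was at 7.50, 11.4 and 7.35 FPKM in wt and 8.17, 8.23 and 7.22 FPKM in med23 ko. Its groups overlapped, with wt replicate 2 the highest (log2 fold change −0.12, SE 0.19, 95% interval −0.56 to 0.32; limma adjusted p = 0.669); without that liver the log2 fold change was 0.08. *Bcl2l11* encodes BIM, which can also activate BAX and BAK directly. It was at 2.30, 2.45 and 3.18 FPKM in wt and 3.31, 4.55 and 2.30 FPKM in med23 ko, with the lowest med23 ko liver level with the lowest wt liver (log2 fold change 0.31, SE 0.26, 95% interval −0.29 to 0.90; limma adjusted p = 0.413). The log2 fold change of *Bcl2l11* was 0.075 without med23 ko replicate 2 and 0.55 without replicate 3. *Pmaip1* encodes NOXA, a partner of MCL-1. It was low, at 0.727, 0.740 and 0.688 FPKM in wt and 0.934, 0.835 and 0.900 FPKM in med23 ko. Its groups did not overlap, but the log2 fold change of 0.27 (SE 0.22, 95% interval −0.23 to 0.78) did not pass (limma adjusted p = 0.391). *Bmf*, whose product is known to be held at the cytoskeleton until cells are stressed, was at 0.278, 0.192 and 0.476 FPKM in wt and 0.527, 0.548 and 0.746 FPKM in med23 ko. Every med23 ko liver was above every wt liver, by 1.92-fold in the mean, as were 6.95% of genes under the filter. With no filter *Bmf* was tested and did not pass (limma adjusted p = 0.137).

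**Figure D3:**
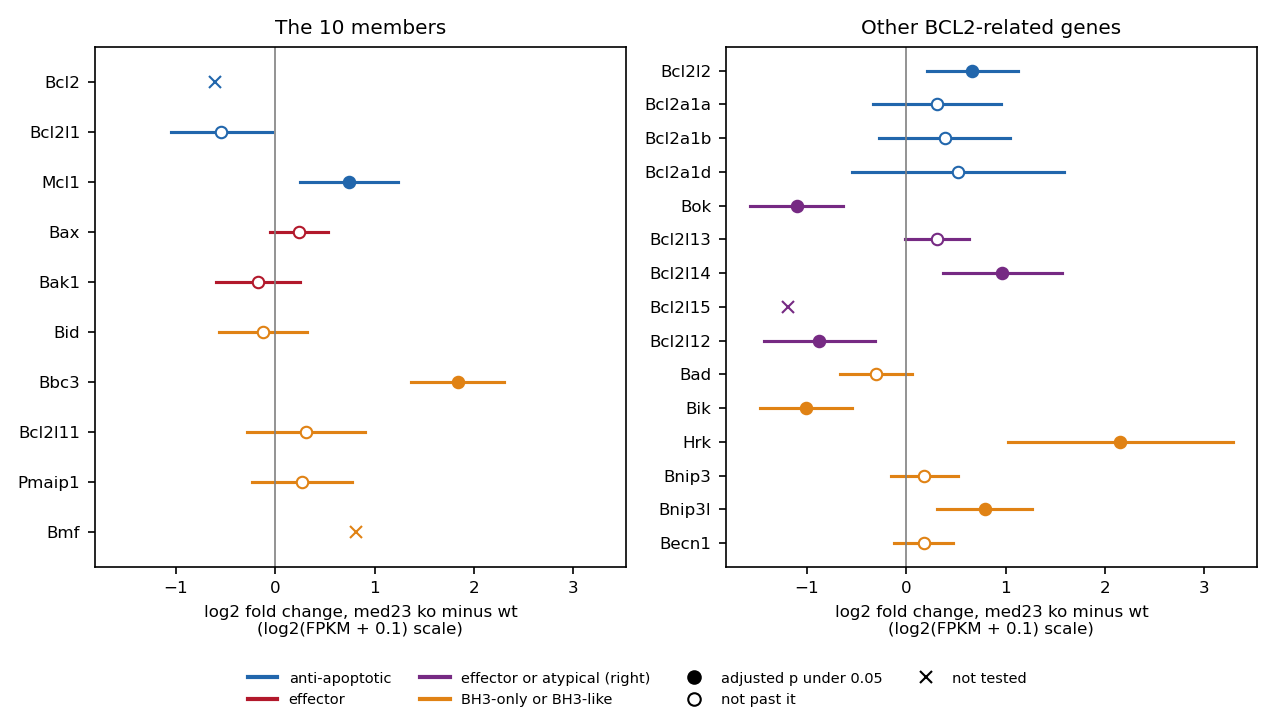
Log2 fold change of med23 ko over wt on the log2(FPKM + 0.1) scale (horizontal axis) for the 10 members (left) and 15 other BCL2-related genes above 0 FPKM (right). Lines are 95% intervals from limma, filled points have an adjusted p under 0.05, and crosses were not tested. Bbc3 (1.84) and Mcl1 (0.75) were the members past the test, and the intervals of the other tested members except Bcl2l1 (−1.05 to −0.03) included 0.

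Summed by role, both pro-apoptotic sums were higher in every med23 ko liver than in any wt liver, carried by *Bax* and *Bbc3*, and the anti-apoptotic sums overlapped. Among the 6 pro-apoptotic members tested, *Bbc3* was the one that passed. The BH3-only genes summed to 13.6, 16.7 and 14.9 FPKM in wt and 22.2, 23.9 and 20.5 FPKM in med23 ko. The lowest med23 ko liver was above the highest wt liver, and *Bbc3* was 11.2% to 21.6% of the sum in wt and 40.8% to 45.6% in med23 ko. Without *Bbc3* the BH3-only sums overlapped, at 10.8, 14.8 and 11.7 FPKM in wt and 12.9, 14.2 and 11.2 FPKM in med23 ko. The effectors summed to 117, 130 and 130 FPKM in wt and 159, 137 and 137 FPKM in med23 ko. The anti-apoptotic sum was 130, 117 and 165 FPKM in wt and 151, 199 and 127 FPKM in med23 ko, and it overlapped, with the highest and the second lowest of the 6 values both in med23 ko. As a log2 ratio of all pro- to all anti-apoptotic FPKM, the wt livers were at −0.00, 0.32 and −0.19 and the med23 ko livers at 0.26, −0.30 and 0.31. The group means differed by 0.04 and the livers of both groups were interleaved. Without *Mcl1*, which was higher in med23 ko, the difference was 0.79. The value without *Bcl2l1*, which had the lower mean there, was not computed.

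Read against *Bbc3* alone, the ratios follow from a denominator that was already known to be higher in med23 ko, and they are given as a description. The summed anti-apoptotic FPKM was 46.6, 62.9 and 51.3 times that of *Bbc3* in wt and 16.5, 20.4 and 13.6 times in med23 ko. *Mcl1* alone was 21.0, 28.1 and 25.9 times *Bbc3* in wt and 11.1, 13.5 and 9.67 times in med23 ko. Both ratios were lower in every med23 ko liver than in any wt liver, although *Mcl1* itself was higher there. The whole BH3-only class did not separate from the anti-apoptotic sum in this way. Its log2 ratio to that sum was −3.26, −2.82 and −3.47 in wt and −2.77, −3.05 and −2.63 in med23 ko, with overlapping groups. These are ratios of RNA and not of protein, and they were not tested.

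**Figure D4:**
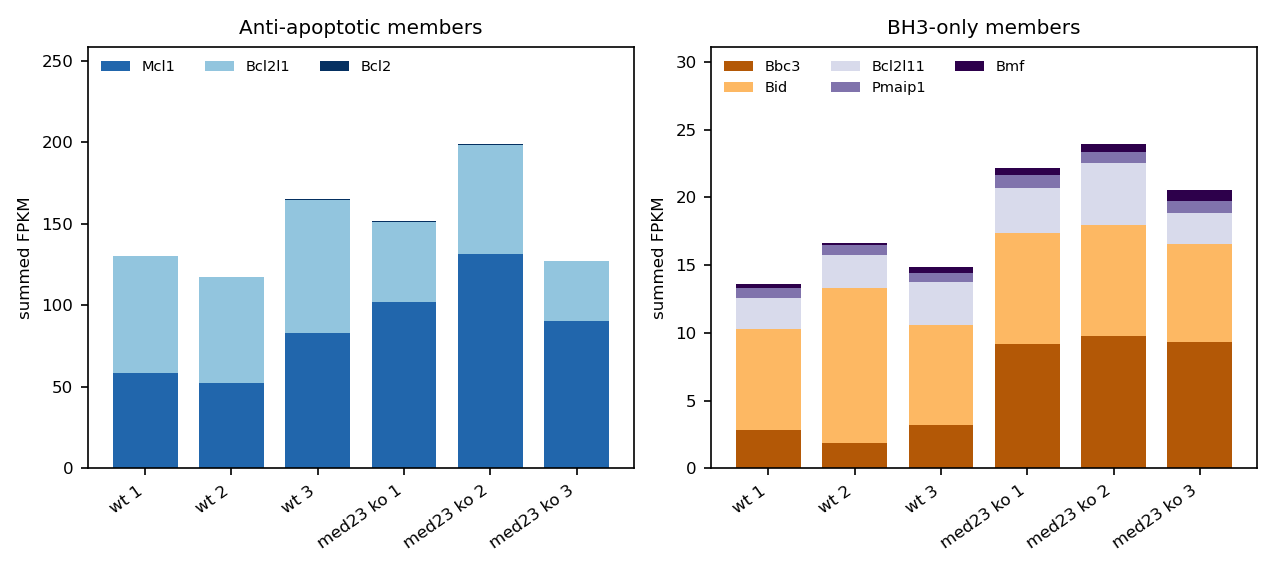
Summed FPKM per liver (vertical axes, from 0) of the anti-apoptotic members (left) and the BH3-only members (right); each bar is 1 liver, divided by gene. The BH3-only sum was 13.6 to 16.7 FPKM in wt and 20.5 to 23.9 FPKM in med23 ko, while the anti-apoptotic sum overlapped between the groups.

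Ranked by mean FPKM, the members ran from *Bax* down to genes under 1 FPKM in both groups. In wt the order was *Bax*, *Bcl2l1*, *Mcl1*, *Bak1*, *Bid*, *Bcl2l11*, *Bbc3*, *Pmaip1*, *Bcl2* and *Bmf*. The neighbours *Bcl2l1* and *Mcl1*, *Bak1* and *Bid*, *Bcl2l11* and *Bbc3*, and *Bcl2* and *Bmf* overlapped in their ranges over livers. In med23 ko the order was *Bax*, *Mcl1*, *Bcl2l1*, *Bak1*, *Bbc3*, *Bid*, *Bcl2l11*, *Pmaip1*, *Bmf* and *Bcl2*. There *Bax* and *Mcl1* overlapped, as did *Bak1* and *Bbc3*, and the other neighbours were apart. *Bbc3* thus stood above *Bid* in every med23 ko liver and below it in every wt liver.

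The rest of the family was read from 17 other BCL2-related genes, of which 14 were tested, 4 rose (28.6%, against 11.6% of all genes tested) and 3 fell (21.4%, against 9.48%). Their median log2 fold change was 0.31, against 0.02 over all genes. *Hrk*, a BH3-only gene, was at 0.407, 0.0351 and 0.186 FPKM in wt and 0.974, 1.42 and 0.962 FPKM in med23 ko, and rose by 2.16 on the log2 scale (SE 0.49; limma adjusted p = 0.0212). The size of this rise depended on the pseudocount, at 0.81 with 1 FPKM and 2.85 with 0.01 FPKM in place of 0.1 FPKM. Its wt mean of 0.209 FPKM was under the filter, so that it entered the test only through the med23 ko livers and had to differ, and its place among the 4 that rose supports nothing. *Bik*, another BH3-only gene, moved the other way, from 3.22, 4.49 and 3.48 FPKM in wt to 1.60, 1.63 and 2.20 FPKM in med23 ko (limma adjusted p = 0.0144). *Bok*, an effector-like gene, was at 12.4, 15.6 and 10.4 FPKM in wt and 4.70, 7.04 and 5.98 FPKM in med23 ko. All its med23 ko livers were below the wt livers, and the fall of 1.10 on the log2 scale (SE 0.20; limma adjusted p = 0.0111) passed in 14 of 14 alternatives.

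Smaller calls in the same group stood closer to the threshold. *Bcl2l2*, which encodes the anti-apoptotic BCL-W, rose from 10.8 ± 3.18 to 16.8 ± 0.769 FPKM (SD, n = 3 each; limma adjusted p = 0.0491), and it shares an exon with the gene model *Gm20521*. *Bnip3l*, which encodes the mitophagy receptor NIX, rose from 23.3 ± 5.84 to 39.5 ± 4.54 FPKM (n = 3 each; limma adjusted p = 0.0340). *Bcl2l14* rose (1.59 ± 0.558 to 3.13 ± 0.563 FPKM, n = 3 each; limma adjusted p = 0.0356) and *Bcl2l12* fell (8.60 ± 1.37 to 4.76 ± 1.46 FPKM, n = 3 each; limma adjusted p = 0.0388). *Bcl2l12* overlaps exons of *Irf3*. With 1 liver left out the log2 fold changes kept their sign, at 0.54 to 0.89 for *Bcl2l2*, 0.83 to 1.23 for *Bcl2l14*, −1.08 to −0.62 for *Bcl2l12*, 0.56 to 0.90 for *Bnip3l*, 1.66 to 2.61 for *Hrk* and −1.15 to −0.87 for *Bik*. Over the whole table, 2517 genes were called with all livers, 740 to 937 without 1 med23 ko liver and 1773 to 3143 without 1 wt liver. The call of *Bcl2l2* was lost without any 1 liver but wt replicate 3 (limma adjusted p 0.115 to 0.147), and that of *Bcl2l14* without any 1 but wt replicate 1 (0.0644 to 0.125). *Bcl2l12* missed the threshold without wt replicate 1 or 2 or med23 ko replicate 2 or 3 (0.0719 to 0.0981). *Bnip3l* (0.0728 to 0.117) and *Hrk* (0.0646 to 0.0801) missed it without any 1 med23 ko liver, and *Bik* without med23 ko replicate 1 (0.0657) or 2 (0.0611). With no filter, limma adjusted p was 0.0817 for *Bcl2l2*, 0.0722 for *Bcl2l14*, 0.0741 for *Bcl2l12* and 0.0595 for *Bnip3l*. With the replicate number as a block it was 0.0774 for *Bcl2l2*, 0.0554 for *Bcl2l12* and 0.0667 for *Bnip3l*. Without the mean-variance trend *Bcl2l2* (0.0650) and *Bcl2l12* (0.0510) missed the threshold, and *Bcl2l2* did under quantile normalization (0.0567).

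Downstream and upstream of the family, 6 more genes were called. *Foxo3*, which encodes a transcription factor known to act on *Bbc3* and *Bcl2l11*, was at 1.34, 1.10 and 0.978 FPKM in wt and 3.04, 3.57 and 3.64 FPKM in med23 ko. It rose 3.00-fold, a log2 fold change of 1.51 (SE 0.18; limma adjusted p = 0.00337), and passed in 14 of 14 alternatives. It was the only one called of 12 tested transcription factors with known action on the family, a share of 8.33% where 11.6% of all genes tested were higher and 9.48% lower. *Trp53*, which encodes p53, was at 26.3 to 32.8 FPKM in wt and 29.7 to 31.9 FPKM in med23 ko, with a log2 fold change of 0.07 that did not pass.

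*Huwe1* encodes a ubiquitin ligase known to mark MCL-1 for degradation. It was at 16.3, 10.6 and 18.0 FPKM in wt and 32.4, 33.8 and 31.4 FPKM in med23 ko. The transcript of its known substrate, *Mcl1*, was also higher there, in a call close to its threshold. These are values of RNA and not of the MCL-1 protein. The log2 fold change of *Huwe1*, 1.15 (SE 0.20, limma adjusted p = 0.00948), passed in 14 of 14 alternatives. It was the only gene called of 9 tested for turnover and chaperones (11.1%, against the same 11.6% of all genes tested that were higher).

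In the death receptor pathway 1 of 8 genes rose and 1 fell, each 12.5%, near the 11.6% and 9.48% of all genes tested. *Fas*, the receptor itself, was at 6.27, 6.35 and 4.07 FPKM in wt and 9.08, 12.5 and 13.2 FPKM in med23 ko and rose by 1.06 on the log2 scale (SE 0.22; limma adjusted p = 0.0169). The adaptor *Fadd* fell from 5.37 ± 0.178 to 3.89 ± 0.354 FPKM (SD, n = 3 each; limma adjusted p = 0.0476). The call of *Fas* was lost without med23 ko replicate 2 (limma adjusted p = 0.0688) or 3 (0.0713), and that of *Fadd* without any 1 liver (0.0682 to 0.181).

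Of 9 apoptosome and mitochondrial genes, *Htra2* rose and *Endog* fell, each 11.1%, near the 11.6% and 9.48% of all genes tested. *Htra2*, a mitochondrial protease that antagonises the inhibitors of apoptosis, went from 11.3 ± 0.577 to 18.5 ± 0.424 FPKM (SD, n = 3 each; limma adjusted p = 0.00847). *Endog*, a mitochondrial nuclease, went from 36.7 ± 4.81 to 22.4 ± 3.11 FPKM (n = 3 each; limma adjusted p = 0.0193). Both overlap exons of neighbours. *Htra2* missed the threshold without med23 ko replicate 1 (limma adjusted p = 0.0521) and *Endog* without replicate 1 (0.0821) or 2 (0.0819). Neither of 2 executioner caspases passed limma after adjustment and neither had an unadjusted p under 0.05. *Casp6*, the more abundant by mean over the 6 livers, had a log2 fold change of 0.21 (95% interval −0.31 to 0.72; limma adjusted p = 0.531). It was 0.0033 without med23 ko replicate 2 and 0.41 without replicate 3. None of 6 tested inhibitors of apoptosis passed limma after adjustment, and *Xiap*, the most abundant, had a log2 fold change of 0.10 (limma adjusted p = 0.676) that was −0.02 without wt replicate 2. At an unadjusted p under 0.05 by limma there were 3 of the 6, where 37.6% of all genes tested lay under the same limit. They were *Birc2* (adjusted p = 0.0966) and *Birc3* (0.0868), with every med23 ko liver below every wt liver as in 20.4% of genes tested, and *Birc5* (0.130), with a mean 2.14 times that of wt and overlapping groups. Over all 66 other genes of the family and its pathways, 60 were tested, 8 rose (13.3%, *Hrk* included) and 5 fell (8.33%), with a median log2 fold change of 0.18. These shares are near those of all genes tested, 11.6% higher and 9.48% lower, and are no result about the pathways as a whole.

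**Figure D5:**
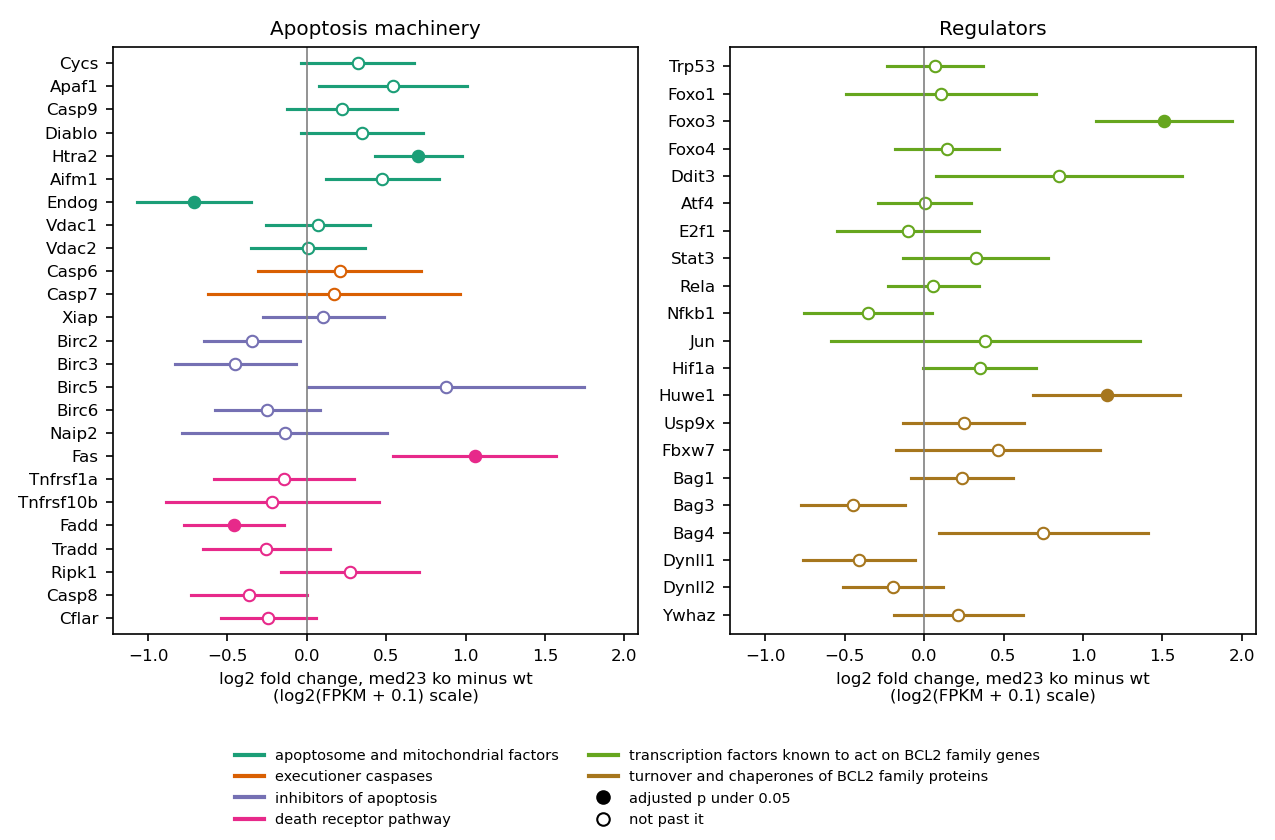
Log2 fold change of med23 ko over wt on the log2(FPKM + 0.1) scale (horizontal axis) for the genes of the apoptosis pathway tested around the family, with 95% intervals from limma as lines and filled points for an adjusted p under 0.05. Foxo3 (1.51), Huwe1 (1.15), Fas (1.06) and Htra2 (0.70) rose, Endog (−0.71) and Fadd (−0.46) fell, and the other genes did not pass.

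The promoters of 2 BH3-only members held a FOXO motif, and they are shown because *Foxo3* and *Bbc3* both rose. Windows of 250 bases before and 50 after an annotated start were taken from RefSeq (GRCm38.p6); 16 windows matched 9 members, and *Pmaip1* had none. Windows of the same gene can overlap and are not independent. The letters TGTTTAC were searched on both strands and were in 2 of the 16 windows, against 3.65% of 32851 windows of all genes. They were in 1 of the 3 windows of *Bbc3* and 1 of the 2 of *Bcl2l11*. The 250 bases before the start of each follow, on the plus strand, with the motif in capitals (as its reverse complement in *Bcl2l11*).
Bbc3 (chr7:16310011-16310260): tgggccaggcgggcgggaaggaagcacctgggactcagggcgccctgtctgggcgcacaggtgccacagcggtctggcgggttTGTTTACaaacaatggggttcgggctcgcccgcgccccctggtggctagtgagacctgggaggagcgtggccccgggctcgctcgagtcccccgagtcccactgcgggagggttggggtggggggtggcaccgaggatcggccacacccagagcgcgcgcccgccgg
Bcl2l11 (chr2:128125788-128126037): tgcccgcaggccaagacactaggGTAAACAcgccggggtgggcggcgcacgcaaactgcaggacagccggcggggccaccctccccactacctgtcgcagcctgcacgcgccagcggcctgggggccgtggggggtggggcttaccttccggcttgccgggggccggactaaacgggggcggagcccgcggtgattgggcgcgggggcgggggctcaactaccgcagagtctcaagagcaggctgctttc
Of these genes *Bbc3* was called and *Bcl2l11* was not. A match is a run of letters and no evidence of binding. The letters AGGTCA were in windows of *Bcl2l1* and *Bmf* (16.3% of all windows) and a p53 half-site in windows of *Bax* and *Bmf* (8.36%). TGATGNAA, the NF-κB motif and TTCNNNGAA were in none of the 16, against 3.97%, 0.411% and 8.30% of all windows.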

How the data were processed

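RNA was measured in 3 wt and 3 med23 ko livers. The authors removed adapters, mapped the read pairs on mm10 by TopHat and quantified genes with Cuffdiff; versions, annotation, options and strand setting are not given in the sources used here. The deposited FPKM per library and gene (24346 genes) were used. The authors' group FPKM, log2 fold changes, test statistics, p-values, q-values and calls were not used, and 0 library columns were unmapped. FPKM keeps no read counts, so depth is unknown, no counting interval is given, and the spread between 3 livers is the only error.

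The 11956 genes whose mean reached 0.5 FPKM were compared as log2(FPKM + 0.1) with limma 3.58.1 in R 4.3.3 (lmFit, eBayes with trend, no block), with Benjamini-Hochberg adjustment over all genes tested. The fit was tested on simulated data. Single values had exact two-sided permutation tests. Sums and ratios over members had no test. The genes named were the 10 members, *Med23*, each listed pathway gene with an adjusted p under 0.05 and, for a list with none, its most abundant gene; *Trp53*, *Birc2*, *Birc3* and *Birc5* were named after their values were seen. The members and lists were chosen with earlier results of these data known, and 1 listed gene is not reported here. Positions came from GENCODE M21 (GRCm38/mm10), and promoter sequences from RefSeq (GRCm38.p6). The alternatives were pseudocounts of 1 and 0.01 FPKM, no filter, a filter at 1 FPKM, centring on the median, quantile normalization, eBayes without trend, the replicate number as a block, and each library left out; for summed levels also scaling by library median and leaving out *Mcl1*.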

Additional observations from a re-analysis of the deposited data

How the results depend on the processing

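The count of 2 changed members, both higher, was 1 without the mean-variance trend, with no filter, under quantile normalization and with the replicate number as a block, and 1 to 2 with 1 liver left out. *Bbc3* was in every one of these counts, and the call past 2-fold was 1 throughout. Among the other genes of the family and pathways, 13 changed; the count was 8 with no filter, 8 with the block and 5 to 17 with 1 liver left out. The 8 that rose were 5 with no filter and 3 to 9 with 1 liver left out. The 5 that fell were 3 without the trend, 3 with no filter, 2 with the block and 1 to 8 with 1 liver left out. Deviations of same-numbered livers from their group means had correlations of −0.02, −0.05 and −0.12. Those of differently numbered livers ran from −0.09 to 0.12. With 3 livers in a group these values cannot decide whether the numbers pair the animals. With the block 1423 genes of the whole table changed, against 2517. Leaving out 1 liver gave 740 to 3143. The difference in log2 pro- to anti-apoptotic ratio, 0.04, was 0.79 without *Mcl1* and −0.07 to 0.24 with 1 liver left out. With 1 liver left out the log2 fold change ranged from −0.23 to 0.082 for *Bid* and from −0.023 to 0.20 for *Xiap*, both turning sign without wt replicate 2, and from −0.22 to 0.017 for *Med23*, turning sign without wt replicate 3. With a pseudocount of 1 the log2 differences of low genes shrank, to −0.18 for *Bcl2*, 0.29 for *Bmf*, 0.14 for *Pmaip1* and 0.81 for *Hrk* (2.85 at 0.01). *Pmaip1* and *Hrk* could not be tested at a filter of 1 FPKM. The cause of these differences was not tested. The difference in BH3-only sum was 7.14 FPKM, and 0.329 FPKM without *Bbc3*. Leaving out *Bbc3*, and single livers for ratios and shares, was chosen after seeing the data.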
